A study of Homo sapiens with 6 samples.

Results

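Heat shock proteins and their J-domain co-chaperones were described here as 71 genes out of 18234 in a deposited table of miR-CLIP and Input RNA from human fibroblasts. Members were taken by symbol: the HSPA, HSPB, HSP90 and DNAJA, DNAJB and DNAJC families, the chaperonins HSPD1 and HSPE1, HSPH1, the transcription factors HSF1 and HSF2, and the co-chaperone BAG3. The choice used gene names and no measured value, but it was made with earlier results of these data known. Of the 71 members, 67 had enough signal to be tested, among 8506 genes tested in all. The other 4 were DNAJB7, HSPB2, HSPB3 and HSPB9, which had between 0 and 5 reads in each library.

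All 6 libraries came from IMR90, a normal human lung fibroblast line, infected with a retrovirus expressing RASV12, a constitutively active form of RAS. Both groups also carried the same miR-146a mimic, modified with psoralen for crosslinking and with biotin for capture, so no group lacked the oncogene or the mimic. Infected cells went through 3 days of selection in 1.5 ug/ml puromycin. They were plated at day 10 and received the mimic 24 hours after plating. The 3 miR-CLIP libraries were labelled with an AGO2 antibody. The 3 Input libraries carried no antibody label, and the sources used here do not say how Input RNA was taken. In miR-CLIP, RNA bound by AGO2, the protein that holds microRNAs, is immunoprecipitated, and RNA attached to the biotinylated mimic is then captured on streptavidin. The libraries are called A, B and C within each group, after the table's columns. The labels do not say whether they stem from separate cultures, so the p-values reflect spread between libraries that may be technical. In bulk RNA, fewer cells of a type and less RNA per cell cannot be told apart.

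Molecular chaperones keep other proteins folded. Hsp70 proteins bind exposed stretches of a client protein in a cycle driven by ATP. J-domain proteins of the DNAJA, DNAJB and DNAJC families deliver clients and switch on the ATPase, and Hsp110 proteins and BAG proteins reset the cycle by releasing the nucleotide. Hsp90 acts later on kinases, receptors and other clients, the small heat shock proteins hold unfolded protein without ATP, and the Hsp60 and Hsp10 chaperonins fold protein inside mitochondria. HSF1 switches on many of these genes under heat and other stress that harms proteins. Fibroblasts carrying active RAS are a common model of senescence, and miR-146a is a microRNA known for restraining interleukin-1 receptor and Toll-like receptor signalling.

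The microRNA is shown first because the members were searched for its sites. The mature miR-146a-5p of RefSeq (GRCh38.p14, chr5:160485372-160485393, plus strand) is printed 5′ to 3′ with its seed, bases 2 to 8, in capitals.

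hsa-miR-146a-5p: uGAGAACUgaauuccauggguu

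Sites were searched on the transcript strand in the longest 3′ UTR that GENCODE release 29 (GRCh38) annotates for each gene. The 7mer-m8 site AGTTCTC pairs with the whole seed, the 8mer AGTTCTCA adds an A after it, and every 8mer therefore holds a 7mer-m8. Of the 67 tested members, 7 held at least 1 such site (10.4%), against 771 of 6298 tested coding genes (12.2%). An 8mer was present in 3 members (4.48%) and in 290 coding genes (4.60%). A 7mer-A1 site, GTTCTCA without the preceding A, occurred in 7 members (10.4%) and in 11.1% of coding genes. Among these members was DNAJC10, which held a 7mer-m8 elsewhere in its UTR. All these sites are matches of letters in annotated sequence, and no member was measured for binding at a site. Of the 7 members with a 7mer-m8 or 8mer, 6 are shown in windows of 30 bases that end at the site, with the site in capitals and coordinates on GRCh38.

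DNAJC10, 7mer-m8, chr2:182786670-182786699, plus strand: aaaccccattcttgccaaagccaAGTTCTC
DNAJC15, 8mer, chr13:43108568-43108597, plus strand: ttctaacattctgtagtttaggAGTTCTCA
DNAJC16, 8mer, chr1:15568793-15568822, plus strand: ataaacgggagttctgcatgtgAGTTCTCA
DNAJC5, 7mer-m8, chr20:63934659-63934688, plus strand: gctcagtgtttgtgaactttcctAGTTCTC
HSPA1A, 8mer, chr6:31817732-31817761, plus strand: tttcctagtatttctgtttgtcAGTTCTCA
HSPA4L, 7mer-m8, chr4:127834368-127834397, plus strand: gatagtcattatttctcacaactAGTTCTC

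The longest annotated UTR is not always the one a cell uses. For DNAJC10 it ran to 17332 bases and for DNAJC15 to 6976, so these sites may lie outside the transcripts made in IMR90. The HSPA1A site sat at base 72 of a UTR of 264 bases, and its near-identical neighbour HSPA1B had none in a UTR of 379 bases.

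The rows held between 6847837 and 12771968 reads per library, of which members took 2.21% to 2.86%. Values are normalised read counts, meaning reads divided by 1 factor per library, and 1 read was worth between 0.612 and 1.25. Each log2 difference takes the Input mean of log2(value + 1) from the miR-CLIP mean and is given with the SE of the limma fit over all tested genes, which understates the change of genes with few reads. The labelled cell type was checked against fibroblast markers. Of 9 listed, 8 were in the table, with a summed level of 106950 to 161002 in Input and 118295 to 144631 in miR-CLIP. Summed levels were 119 to 136 for epithelial, 157 to 246 for endothelial and 7.81 to 25.1 for blood cell markers in Input, and 18.6 to 205, 124 to 237 and 9.29 to 41.3 in miR-CLIP. Among the epithelial markers, KRT8 had an Input mean of 111, EPCAM 9.38, KRT19 4.91 and CDH1 0.493. In miR-CLIP the means were 82.6 for KRT8, 2.00 for EPCAM and 2.65 for KRT19, and CDH1 had no read. LUM was the listed fibroblast marker absent from the table.

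miR-CLIP library B stood apart from A and C. Over the 67 tested members, which are not independent and share each library's depth, its log2 values had a Pearson correlation of 0.981 to 0.986 with the Input libraries, against 0.917 with miR-CLIP A and 0.897 with miR-CLIP C. Among the Input libraries it was 0.986 to 0.992, and between miR-CLIP A and C 0.946. Over the table, 8940, 11137 and 7329 genes had a read in miR-CLIP A, B and C, from 9378463, 8088221 and 6847837 reads. In the Input libraries 10204 to 11930 genes had one. By both measures B lay nearer to Input than A and C did, and which of the miR-CLIP libraries depart from the usual was not tested. No label sets library B apart, so the main comparison used all 6 libraries, and the same fit without B is given beside it.

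In Input, the cytosolic folding machinery led. Per kilobase of the longest annotated coding transcript, HSPA8, the constitutive Hsp70 of the cytosol and nucleus, had 19730, 19745 and 20261 normalised read counts in Input A, B and C. HSP90AB1 and HSP90AA1, the constitutive and the inducible cytosolic Hsp90, followed at means of 8952 ± 1811 and 6754 ± 2479 (SD, n = 3). Next came HSPA5, known as BiP and the Hsp70 of the endoplasmic reticulum (ER), at 3328 ± 555, and HSP90B1, known as GRP94 and the Hsp90 of the ER, at 3058 ± 992. HSPB1, the small heat shock protein Hsp27, had 2708 ± 35.2, and HSPD1, the mitochondrial Hsp60, 2690 ± 787. In every Input library HSPA8 was above HSP90AB1, and the ranges of HSP90AA1 and HSPA5 were separate too. HSP90AB1 and HSP90AA1 had overlapping ranges, as did each neighbouring pair from HSPA5 through HSP90B1 and HSPB1 to HSPD1 and DNAJA1. The J-domain proteins began lower, with DNAJA1 at 1846 ± 523 and DNAJB1, the partner of inducible Hsp70, at 1289 ± 87.1. The inducible Hsp70 genes had low values: HSPA1A had 50.8 and HSPA1B 46.1 per kilobase, and HSPA6, which is nearly silent without stress in human cells, had 0.899. The coding sequences of HSPA1A and HSPA1B are nearly the same, and the sources used here do not say how reads matching both were counted. The values of HSPA1A and HSPA1B may therefore be too low. HSPA8 alone made up 21.7% to 28.2% of the members' summed Input value.

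**Figure D1:**
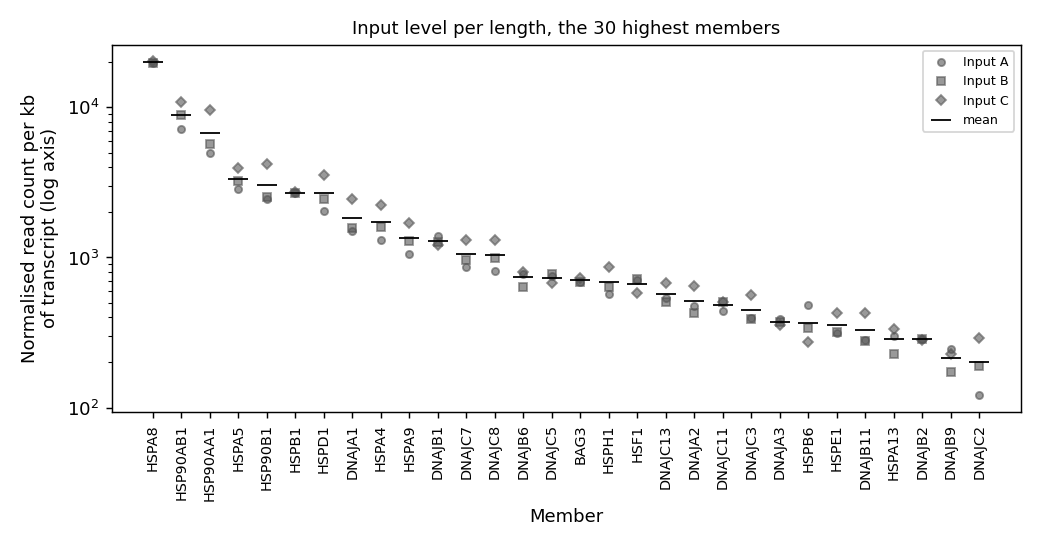
Input level of the 30 members with the highest normalised read count per kilobase of their longest annotated coding transcript (y axis, log scale; x axis, members in falling order); points are the 3 Input libraries and bars their means. HSPA8 lies above every other member in all 3 libraries, at 19730 to 20261 per kilobase.

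No chaperone gene passed the test of miR-CLIP against Input with all 6 libraries. With limma, 0 of the 67 tested members passed an adjusted p of 0.05, the background being 0 of 8506 genes (0.0%), and the smallest adjusted p was 0.611 in both sets. Neither edgeR nor DESeq2 on the recovered reads called a member. At an unadjusted limma p under 0.05, 3 members were higher and 5 lower, or 4.48% and 7.46% of members, against 2.4% and 4.04% of all tested genes. In the authors' deposited table, 8 members had a p under 0.05, 4 with a fold above 1 and 4 with a fold below 1, and their smallest adjusted p was 1. A fold above 1 with such a p was found in 5.63% of the members and in 1.87% of the 18221 genes with a p in the authors' deposited table, and a fold below 1 in 5.63% and 0.944%, which makes 11.3% and 2.82% in all. Among the 8506 genes tested here, many rows with few reads being left out, a p under 0.05 in the authors' deposited table was held by 11.9% of members and 5.74% of genes. The median log2 difference of the members was -0.08, with 29 positive and 38 negative, beside -0.13 for all tested genes. Library by library, the members' median stood at -0.16, 0.15 and -0.18 from the Input mean in libraries A, B and C of miR-CLIP, and that of all tested genes at -0.10, 0.06 and -0.28.

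Without miR-CLIP B, 26 members passed with limma, 10 higher and 16 lower. These were 14.9% and 23.9% of members, against 12.6% and 16.1% of all tested genes. Genes said to pass or not to pass without library B refer to this limma fit. The members' median was then -0.16, beside -0.22 for all genes. Library B itself differed from the Input mean in the direction of that estimate for 8 of the 26 members (30.8%) and for 766 of the 2442 genes called over the table (31.4%). The 8 were DNAJA4, DNAJB2, DNAJB5 and DNAJB6, which were higher, and DNAJB4, DNAJB14, DNAJC24 and DNAJC28, which were lower. For the other 18 members the direction given without B was opposite to that of library B.

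**Figure D2:**
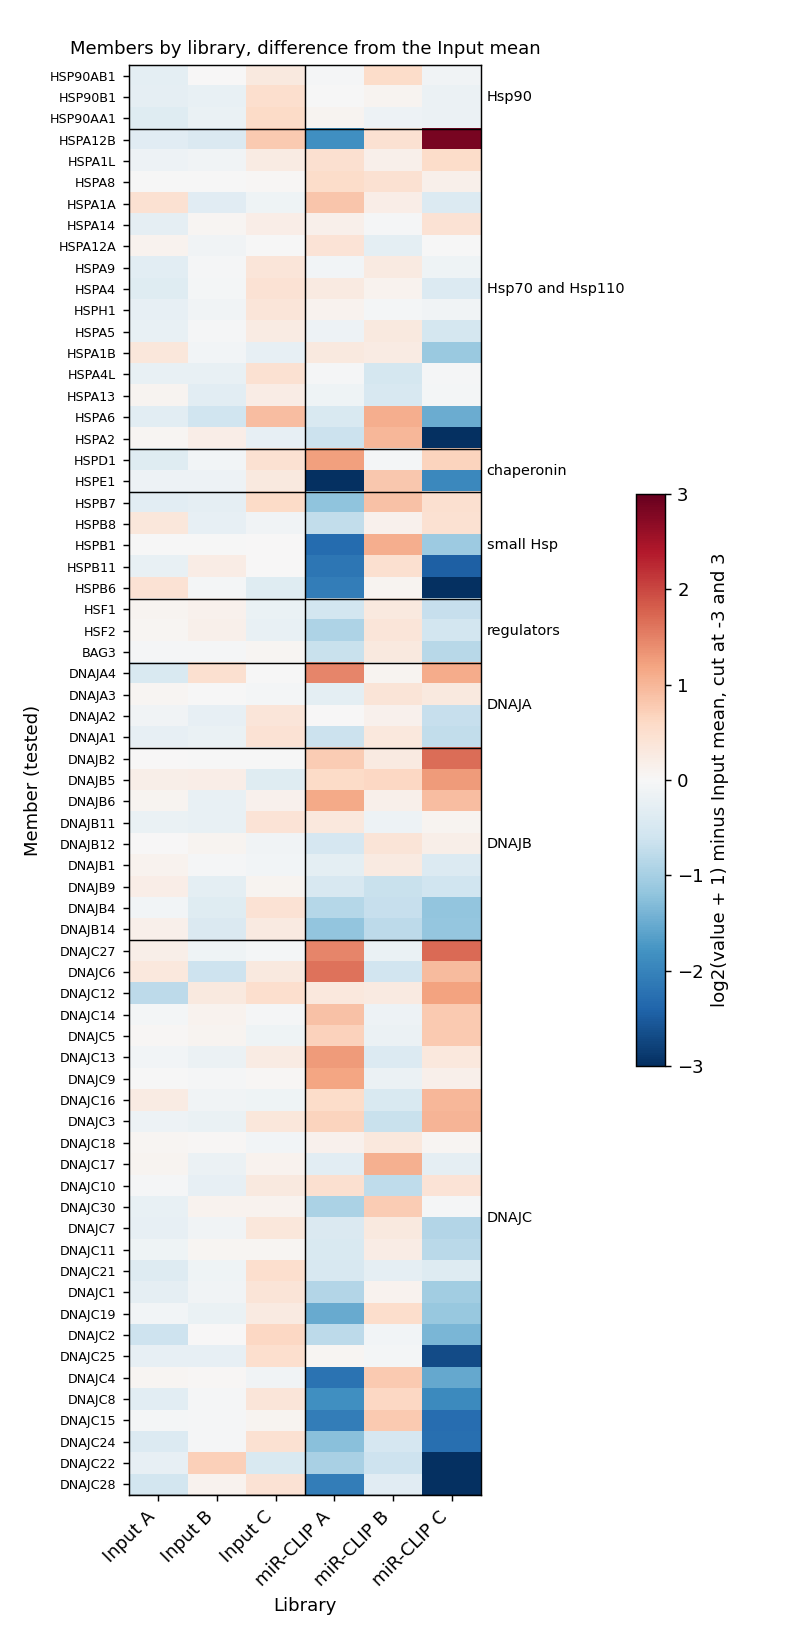
Log2(value + 1) of the 67 tested members minus their Input mean (colour, limited to -3 and 3), with members as rows grouped by role and the 6 libraries as columns. The columns of miR-CLIP A and C share many colours that miR-CLIP B does not, as for HSPB1 at -2.30 and -1.09 in A and C and 1.09 in B.

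The abundant Hsp90 genes had small differences between the groups. HSP90AB1 (chr6:44246166-44253888) had 19230, 23677 and 28905 normalised read counts in the Input libraries and 23008, 34616 and 21990 in miR-CLIP. HSP90AA1 (chr14:102080738-102139699) had 17553, 19902 and 33660 in Input and 24222, 20337 and 20126 in miR-CLIP. HSP90B1 had 6979, 7227 and 12010 against 8358, 8900 and 7500. Input C was the highest Input library for each of the 3, and the groups overlapped for each. Their log2 differences were 0.14 ± 0.33 for HSP90AB1, -0.08 ± 0.34 for HSP90AA1 and -0.04 ± 0.30 for HSP90B1, with limma adjusted p of 0.880, 0.932 and 0.964. None of the 3 passed without library B.

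Of the 15 tested Hsp70 and Hsp110 genes, 1 had groups that did not overlap, HSPA8 (chr11:123057489-123063230). Over all tested genes, 5.64% were higher without overlap and 7.34% lower. HSPA8 had 48596, 48631 and 49904 in Input and 71912, 67557 and 54910 in miR-CLIP, so all 3 miR-CLIP libraries lay above all 3 Input libraries. The log2 difference was 0.39 ± 0.33 (limma adjusted p 0.642), and it did not pass without library B either. HSPA5 had 11095, 12557 and 15363 in Input and 11540, 15836 and 8931 in miR-CLIP, a log2 difference of -0.13 ± 0.32. HSPA4, an Hsp110 protein of the cytosol, had 6274, 7706 and 10793 against 9687, 8650 and 6100, a log2 difference of -0.01 ± 0.32. HSPA9, the mitochondrial Hsp70 that drives protein import, had 5002, 6092 and 8061 against 5937, 7559 and 5761, a log2 difference of 0.02 ± 0.29. The groups of HSPA5, HSPA4 and HSPA9 overlapped, with the spread of the libraries larger than the difference.

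The inducible HSPA1A, with an 8mer site for the transfected microRNA, had 169, 97.3 and 112 in Input and 220, 141 and 92.5 in miR-CLIP. Its log2 difference was 0.21 ± 0.43 (limma adjusted p 0.857), and the lowest of the 6 values was a miR-CLIP library. HSPA1B, without such a site, had 145, 108 and 96.3 against 141, 136 and 52.5, a log2 difference of -0.19 ± 0.47. HSPA1A per HSPA1B ran from 0.900 to 1.17 in Input and from 1.04 to 1.76 in miR-CLIP, with an exact two-sided permutation p of 0.3 where 0.1 is the smallest this design can give, and an adjusted p of 0.6 over 5 ratios computed. The coding sequences of HSPA1A and HSPA1B are nearly the same, so the division of reads between them is uncertain, as is the level of both. HSPA4L, an Hsp110 protein with a 7mer-m8 site, had 394, 396 and 631 against 448, 318 and 448, a log2 difference of -0.21 ± 0.31. Among the 15 Hsp70 and Hsp110 genes as a group, 7 log2 differences were positive and 8 negative with a median of -0.01, and 0 passed in either fit. HSPA12B, HSPA6 and HSPA2 had the widest estimates of the group, at 0.49 ± 1.12, -0.28 ± 0.84 and -1.49 ± 1.26. HSPA12B and HSPA6 had Input means of 2.90 and 2.13, a few reads per library.

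The mitochondrial chaperonin pair divided. HSPD1 (chr2:197486581-197516737, minus strand), the Hsp60 ring, had 5019, 6033 and 8757 in Input and 15065, 6143 and 10230 in miR-CLIP. HSPE1 (chr2:197499994-197503457, plus strand), its Hsp10 lid, had 299, 301 and 408 in Input and 24.8, 585 and 86.3 in miR-CLIP. In miR-CLIP A and C the Hsp60 transcript was thus above every Input library and the Hsp10 transcript below every one, while in miR-CLIP B HSPE1 was above them and HSPD1 within their range. The log2 differences were 0.61 ± 0.39 and -1.60 ± 0.94, each with a limma adjusted p of 0.611. Without library B they were 0.95 and -2.81 and both passed, with limma adjusted p of 0.0374 and 0.00546. Without miR-CLIP A they were 0.30 and -0.56, and neither passed. Over all alternatives the adjusted p ran from 0.0321 to 0.884 for HSPD1 and from 0.00273 to 0.918 for HSPE1.

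HSPE1 reads came to 5.97%, 4.99% and 4.66% of HSPD1 reads in the Input libraries A to C, and to 0.164%, 9.52% and 0.843% in those of miR-CLIP. The miR-CLIP libraries lay on both sides of Input, and an exact two-sided permutation test of this ratio gave a p of 0.4, adjusted to 0.6 over the 5 ratios. In the annotation these neighbours share 281 exon bases on opposite strands. The sources used here do not give the strand setting of the counting, and reads from shared bases cannot be told apart without it. HSPE1 also has one of the shortest transcripts among the members, 950 nucleotides against 2455 for HSPD1.

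**Figure D3:**
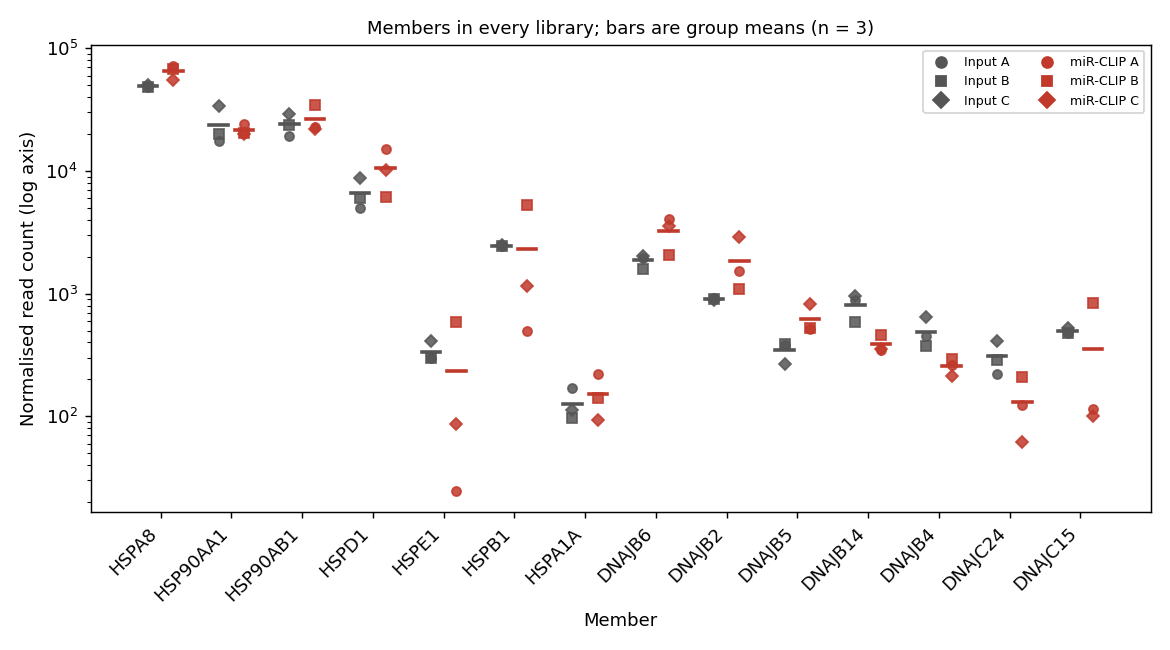
Normalised read count (y axis, log scale) of 14 members in the 3 Input libraries (grey) and the 3 miR-CLIP libraries (red); symbols mark libraries A, B and C and bars the group means (n = 3). HSPE1, HSPB1 and DNAJC15 span a wide range in miR-CLIP, with library B above every Input library and A and C below.

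Small heat shock proteins had values far apart in the miR-CLIP libraries. HSPB1 (chr7:76302544-76304295), or Hsp27, which binds unfolded protein and actin, had 2456, 2433 and 2496 in Input and 498, 5249 and 1153 in miR-CLIP. HSPB6, or Hsp20, had 701, 495 and 401 against 122, 548 and 56.3. HSPB11, which acts as a subunit of the transport complex of cilia, had 142, 194 and 169 against 36.1, 234 and 30.01. For all 3, miR-CLIP A and C were below every Input library and miR-CLIP B was higher than both by a wide margin. HSPB8, or Hsp22, the partner of BAG3, had 255, 170 and 185 against 120, 218 and 275, and did not follow that order.

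The log2 differences were -0.77 ± 0.71 for HSPB1, -1.73 ± 0.72 for HSPB6, -1.38 ± 0.72 for HSPB11 and -0.05 ± 0.40 for HSPB8. HSPB7, known from heart muscle, had 10.4, 10.8 and 19.95 in Input and a log2 difference of 0.05 ± 0.70. All 5 tested small heat shock genes were below the Input mean in miR-CLIP A and above it in miR-CLIP B, and 3 of 5 were below it in miR-CLIP C. Without library B, HSPB1, HSPB6 and HSPB11 passed as lower, with limma adjusted p of 0.00710, 0.00262 and 0.00255. Over all alternatives the adjusted p ran from 0.0043 to 1 for HSPB1, from 0.000945 to 0.884 for HSPB6 and from 0.00118 to 0.884 for HSPB11. Leaving out 1 library moved the log2 difference from -1.70 without miR-CLIP B to -0.00089 without miR-CLIP A for HSPB1. With limma it was -2.63 without miR-CLIP B and -0.999 without miR-CLIP C for HSPB6, and -2.31 and -0.85 for HSPB11. HSPB1, HSPB6 and HSPB11 have longest transcripts of 909, 1457 and 915 nucleotides. Of the 1330 other tested coding genes under 2000 nucleotides, 506 passed as lower and 34 as higher without library B.

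The regulators of the system were highest in miR-CLIP B. HSF1, the main heat shock transcription factor, had 1511, 1548 and 1236 in Input and 980, 1744 and 885 in miR-CLIP. HSF2, which can pair with HSF1, had 167, 177 and 135 against 82.6, 206 and 108. BAG3 (chr10:119651370-119677819), a nucleotide exchange factor for Hsp70 that leads clients to autophagy, had 1769, 1772 and 1886 against 1135, 2199 and 1018. For each of the 3, the lowest of the 6 libraries was miR-CLIP A or C. Their log2 differences were -0.31 ± 0.32, -0.37 ± 0.42 and -0.41 ± 0.33, with limma adjusted p of 0.696, 0.725 and 0.639. HSF1 and BAG3 passed as lower without library B and HSF2 did not.

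Among the 4 DNAJA proteins, which resemble bacterial DnaJ, DNAJA1 had 3598, 3757 and 5829 in Input and 2724, 5328 and 2582 in miR-CLIP. DNAJA2, like DNAJA1 a cytosolic partner of HSPA8, had 1478, 1329 and 2025 against 1590, 1719 and 983. DNAJA3, the mitochondrial form, had 1069, 1022 and 984 against 837, 1336 and 1264. The groups of all 3 overlapped. The log2 differences were -0.36 ± 0.36 for DNAJA1, -0.19 ± 0.31 for DNAJA2 and 0.13 ± 0.27 for DNAJA3. DNAJA4 was much lower, with 38.6, 75.7 and 52.9 in Input and 151, 56.6 and 118 in miR-CLIP. Its log2 difference was 0.89 ± 0.50 (limma adjusted p 0.611), and it passed as higher without library B. DNAJA1 did not pass in that limma fit, but did as lower with edgeR without library B (adjusted p 0.0266), and over all alternatives its adjusted p ran from 0.0266 to 0.943.

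The DNAJB family held 6 of the 10 members whose groups did not overlap. Over all members, 5 were higher and 5 lower in every miR-CLIP library than in every Input library, each 7.46% of the 67, against 5.64% of tested genes higher and 7.34% lower. The higher ones were DNAJB2, DNAJB5, DNAJB6, DNAJC18 and HSPA8, and the lower ones DNAJB4, DNAJB9, DNAJB14, DNAJC22 and DNAJC24. That 6 of the 9 tested DNAJB genes were among them was seen in these values and was not tested.

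DNAJB6 (chr7:157335381-157417439), which keeps polyglutamine proteins from aggregating, had 1968, 1602 and 2033 in Input and 4072, 2054 and 3537 in miR-CLIP. The lowest miR-CLIP library exceeded the highest Input library only narrowly. DNAJB2 (chr2:219279267-219286900), a J protein that also binds ubiquitin, had 914, 904 and 896 against 1527, 1088 and 2871. DNAJB5 had 383, 389 and 265 against 511, 523 and 821. For DNAJB2 and DNAJB5 the highest value was in miR-CLIP C, and for DNAJB6 in miR-CLIP A. The log2 differences were 0.74 ± 0.31, 0.90 ± 0.36 and 0.82 ± 0.32, each with a limma adjusted p of 0.611.

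DNAJB14 (chr4:99896248-99946726), anchored in the ER membrane with its J domain in the cytosol, had 884, 587 and 960 in Input and 348, 457 and 356 in miR-CLIP. DNAJB4 (chr1:77979175-78017964), a cytosolic relative of DNAJB1, had 451, 374 and 648 against 262, 294 and 211. DNAJB9, the ER protein ERdj4 that holds the stress sensor IRE1 inactive together with BiP, had 664, 470 and 613 against 411, 362 and 379. Here library B lay with A and C, all 3 below Input. The log2 differences were -1.04 ± 0.30, -0.91 ± 0.32 and -0.59 ± 0.27, again each with a limma adjusted p of 0.611. DNAJB14 had the smallest unadjusted limma p of all members, 0.00697. DNAJB2, DNAJB4, DNAJB5, DNAJB14, DNAJC24 and HSPB6 were picked for the 6 smallest p, so their differences describe that choice.

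Without library B, DNAJB2, DNAJB5 and DNAJB6 passed as higher and DNAJB4 and DNAJB14 as lower, and DNAJB9 did not pass. The log2 differences of the 5 were then 1.21, 0.93, 1.03, -1.02 and -1.17, with limma adjusted p of 0.0118, 0.0395, 0.00551, 0.0270 and 0.0107. Over all alternatives the lowest adjusted p was 0.00692, 0.0395, 0.00458, 0.0127 and 0.00422, and the highest 0.884 for each. The longest transcripts of DNAJB4 and DNAJB14 had GC contents of 33.1% and 33.4%, and those of DNAJB2, DNAJB5 and DNAJB6 61.6%, 53.2% and 49.4%. Those of DNAJB1, DNAJB11 and DNAJB12, whose groups overlapped, had 53.0%, 49.5% and 56.5%, with log2 differences of -0.14, 0.08 and 0.02. A link of GC content with these differences was not tested. DNAJB1, the most abundant DNAJB gene, had 3138, 2856 and 2759 in Input and 2380, 3511 and 2208 in miR-CLIP, a log2 difference of -0.14 ± 0.27.

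DNAJC proteins share little beyond the J domain and serve many compartments. The 26 tested genes had a median log2 difference of -0.21, 12 positive and 14 negative, and without library B 5 passed as higher and 8 as lower, where 12.6% and 16.1% of all tested genes did. DNAJC13 (chr3:132417526-132539032), an endosomal protein, had 4129, 3923 and 5249 in Input and 10662, 3294 and 5462 in miR-CLIP, a log2 difference of 0.39 ± 0.42. miR-CLIP A held the highest value and miR-CLIP B the lowest. DNAJC24, an enzyme cofactor in making the diphthamide residue of elongation factor 2, had 223, 289 and 412 against 124, 210 and 61.3. Its groups were separate and its log2 difference was -1.35 ± 0.49 (limma adjusted p 0.611).

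Of the members with a site, 5 were DNAJC genes. DNAJC5 (chr20:63895182-63936031), the cysteine string protein of secretory vesicles, had 3906, 4052 and 3517 in Input and 6131, 3395 and 6558 in miR-CLIP. DNAJC10 (chr2:182716041-182794464), the ER reductase ERdj5, had 3323, 2854 and 4148 against 4734, 2001 and 4536. DNAJC3 (chr13:95677139-95794989), the ER protein P58IPK that holds back the kinase PERK, had 2225, 2171 and 3130 against 3962, 1559 and 4980. In these 3, miR-CLIP A and C were above every Input library and B below every one. DNAJC16, of the ER membrane, had 815, 639 and 633 against 1007, 505 and 1388, in the same order. DNAJC15 (chr13:43023203-43114224), a mitochondrial inner membrane protein, had 475, 477 and 524 against 116, 841 and 100, the reverse order.

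The log2 differences were 0.43 ± 0.31 for DNAJC5, 0.04 ± 0.37 for DNAJC10, 0.34 ± 0.43 for DNAJC3, 0.37 ± 0.38 for DNAJC16 and -1.20 ± 0.72 for DNAJC15. Without library B, DNAJC3, DNAJC5 and DNAJC16 passed as higher and DNAJC15 as lower. In that fit, 218 of the 764 other tested coding genes with a site passed as higher and 65 as lower. Of the 2567 other tested coding genes over 4000 nucleotides, 731 passed as higher and 188 as lower. DNAJC15 had a log2 difference of -2.18 and a limma adjusted p of 0.000981 without library B. Without miR-CLIP C it was -0.65, and its adjusted p ran from 0.000307 to 0.913 over all alternatives. The direction of DNAJC10 turned to -0.38 once the trend of each library on transcript length was taken out. As a group the 7 members with a site had a median log2 difference of 0.21, 5 positive and 2 negative. The 60 without one had -0.11, 24 positive and 36 negative. From the Input mean, the 7 stood at a median of 0.54 in library A of miR-CLIP, -0.45 in B and 0.42 in C. The 60 stood at -0.30, 0.18 and -0.32, so the sign of each set turned in library B. Other coding genes with a site had a median log2 difference of 0.13 and those without -0.10. Other coding genes over 4000 nucleotides, taken by length and not by site, had 0.13 as well. The members with a site also had longer transcripts, with a median of 6069 nucleotides against 2739 for members without. The part of length in the difference between members with and without a site was not tested within the members.

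Other DNAJC genes filled the range. Highest was DNAJC27, related to small GTPases, at 0.99 ± 0.53, and lowest DNAJC28 at -2.05 ± 0.87 and DNAJC22 at -1.73 ± 0.89. DNAJC22 and DNAJC28 had Input means of 12.0 and 30.4, and DNAJC22 had no read in miR-CLIP C. DNAJC8, associated with splicing, was at -1.04 ± 0.62, and DNAJC19, of the mitochondrial import motor, at -0.71 ± 0.57. DNAJC2, the partner of HSPA14 on the ribosome, stood at -0.74 ± 0.43, and HSPA14 itself at 0.18 ± 0.29.

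**Figure D4:**
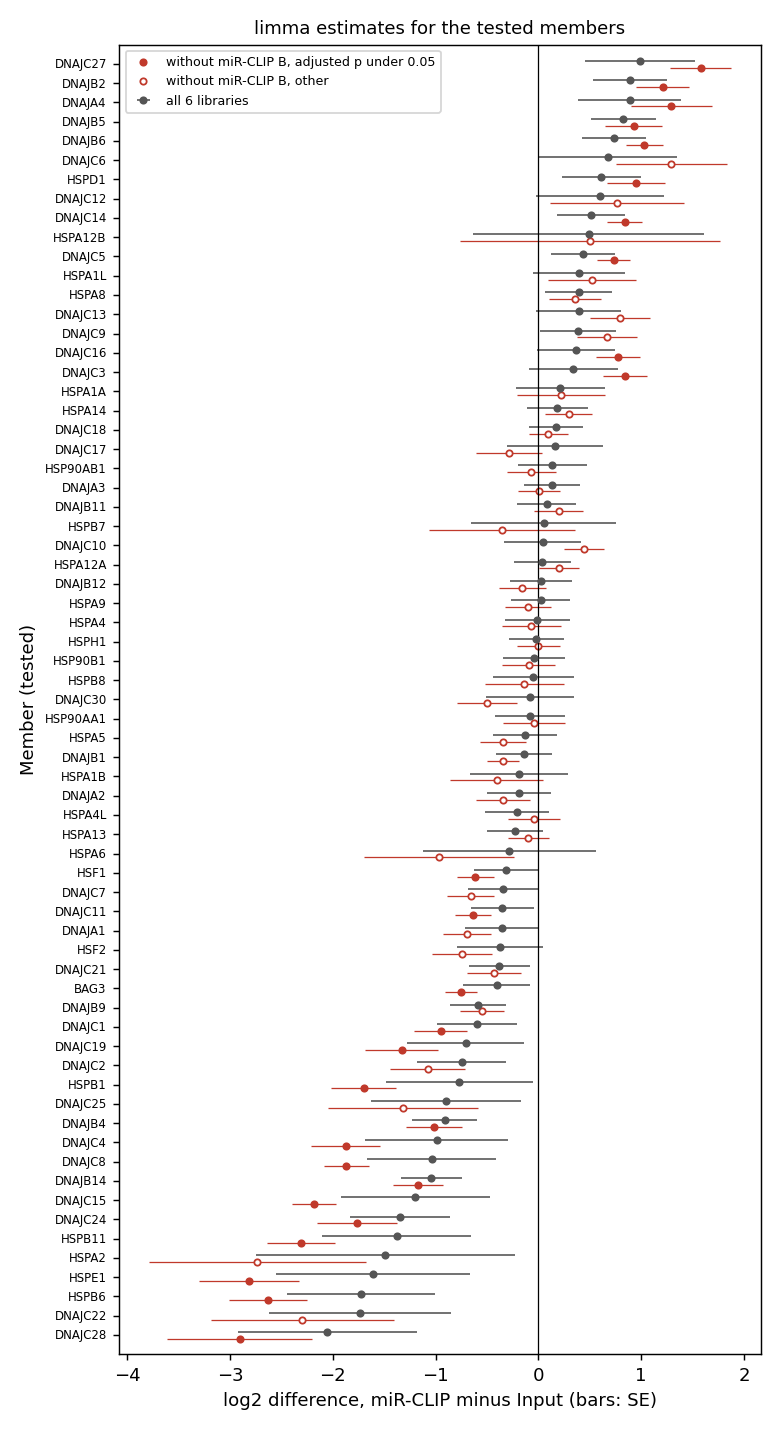
Log2 difference, miR-CLIP minus Input (x axis), of the 67 tested members (y axis, ordered by the estimate from all 6 libraries), with bars of 1 SE; grey points use 6 libraries and red points leave out miR-CLIP B, filled where the limma adjusted p is under 0.05. No grey point passes, and 26 red points do, 10 to the right of 0 and 16 to the left.

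Grouped by compartment, the 13 tested genes of the ER had a median log2 difference of 0.02, the 8 of mitochondria -0.22 and the 46 of the cytosol, nucleus or elsewhere -0.11. From the Input mean, the mitochondrial genes stood at medians of -0.71, 0.46 and -0.46 in the libraries A to C of miR-CLIP, with HSPD1 the only one of the 8 above it in A. The ER genes stood at -0.02, -0.14 and 0.07. No compartment had a gene that passed with 6 libraries, and differences between compartments were not tested.

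Transcript length went with the split between libraries among chaperone genes as over the table. The 9 tested members with a longest transcript under 2000 nucleotides had medians of -2.08, 0.54 and -1.54 from the Input mean in the miR-CLIP libraries A to C. Other coding genes of that length had -0.91, 0.52 and -1.02. The 19 members over 4000 nucleotides had 0.13, -0.28 and -0.01, and other coding genes 0.45, -0.20 and 0.27. Over the 67 members the Spearman correlation of the difference with length was 0.407, -0.422 and 0.342 in A, B and C, and over the 58 members of at least 2000 nucleotides it was 0.240, -0.312 and 0.269. Over 8475 tested genes it was 0.362, -0.371 and 0.334. For the Input libraries, each set against the other Input libraries, the members had 0.131, -0.158 and -0.038. GC content went with library B, with a Spearman correlation of 0.536 over the members, against -0.110 in A and 0.063 in C. Input C had -0.422 with GC content. Over 8475 tested genes the correlation with GC content was 0.361 in miR-CLIP B and -0.351 in Input C. These correlations are descriptions over genes that share libraries. With the length trend of each library taken out of the fit on 6 libraries, 0 members passed, and their median log2 difference was -0.09. With the trend left in, 0 of all 8506 tested genes passed, so an unchanged count of members cannot show what part length has. The length trend was not taken out of the fit without library B, so the calls made there were not tested for it. Lengths are those of the longest annotated coding transcript, which at 20129 nucleotides for DNAJC10 and 7853 for DNAJC15 may exceed what the cells make.

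**Figure D5:**
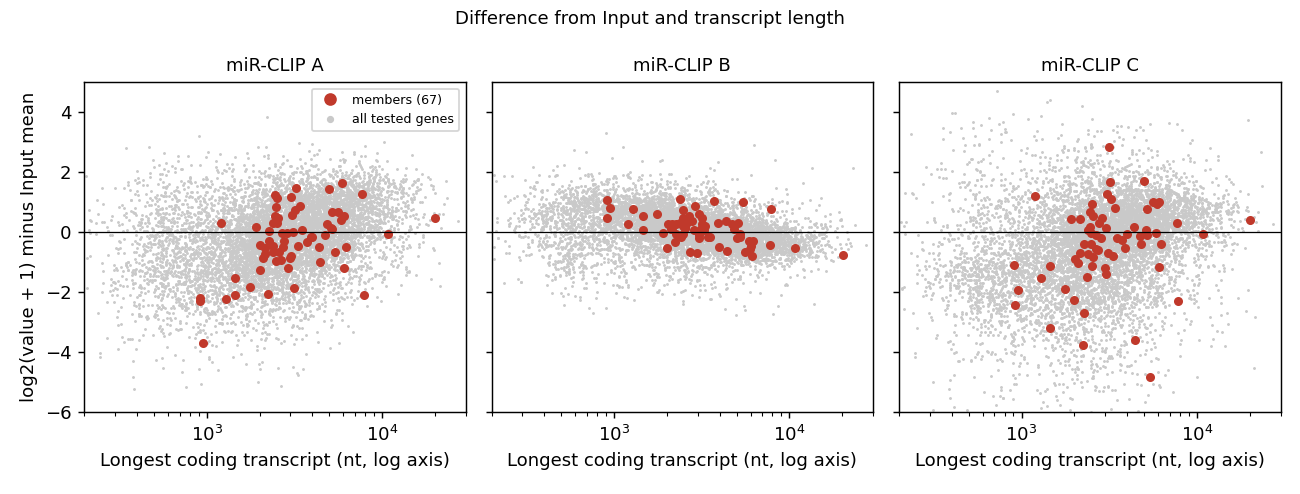
Difference from the Input mean, log2(value + 1) (y axis), against the length of the longest annotated coding transcript in nucleotides (x axis, log scale), for all tested genes (grey) and the 67 members (red) in miR-CLIP A, B and C. Most members under 2000 nucleotides lie below 0 in A and C and above 0 in B, with medians of -2.08, -1.54 and 0.54.

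A list of 47 further genes of protein folding and its stress responses, of which 46 were in the table and 44 tested, gave a setting for the members. With 6 libraries 0 of the 44 passed in either direction, and the median log2 difference was -0.01, with 19 positive and 25 negative. Without library B, 8 were higher and 14 lower of the 44, where 12.6% and 16.1% of all tested genes were. Among subunits of the cytosolic chaperonin CCT, CCT5 had 5340, 6378 and 6423 in Input and 6881, 7511 and 5871 in miR-CLIP, a log2 difference of 0.16 ± 0.25, and CCT7 had 5031, 5787 and 5417 against 6201, 7091 and 6420, a log2 difference of 0.28 ± 0.24. The ER lectins CALR and CANX had -0.50 ± 0.43 and 0.21 ± 0.35. GAK, a kinase whose J domain acts with HSPA8 to uncoat clathrin vesicles, had 2850, 3014 and 2649 against 5043, 3645 and 4085, a log2 difference of 0.57 ± 0.25 (limma adjusted p 0.611). Of the 44, 3 were higher without overlap of the groups, CCT7 and GAK among them, and 1 was lower. Of all tested genes, 5.64% were higher in this way and 7.34% lower. DDIT3, the stress-response transcription factor known as CHOP, had 223, 297 and 301 against 40.3, 404 and 50.01, and ATF4 had 1929, 2182 and 2426 against 778, 2761 and 1031, both highest in miR-CLIP B. ATF6, a sensor of ER stress, had 2099, 1882 and 2398 against 1878, 1783 and 2989, with miR-CLIP B the lowest.

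Pseudogenes of chaperones, whose sequences can share reads with members, were counted with few reads. The sources used here do not say how reads matching several genes were counted. What members lost to pseudogenes or gained from them therefore cannot be read from these values. Of 54 non-coding rows, 26 were tested and 0 passed with 6 libraries. The highest were HSP90AB3P, with a mean of 73.6 ± 15.6 in Input, and HSP90AA2P, with 57.2 ± 33.1. In Input B these 2 had 86.5 and 38.3, beside 23677 for HSP90AB1 and 19902 for HSP90AA1. In the annotation, 34 of the 71 members share exon bases with another gene, 26 with one on the opposite strand and 16 with one on the same strand.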

How the data were processed

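RNA of 3 Input and 3 miR-CLIP libraries was measured per gene. The deposited signal values are gene reads divided by 1 factor per library by the authors: within 1e-06, 100% of values in a column were whole multiples of 1 step, so reads were recovered. A fold (the ratio of miR-CLIP to Input), p-values and adjusted p-values by the authors were in the table too, per the file headers. STAR 2.5.1b, Trimmomatic 0.35, DESeq2 1.22.2 and build GRCh38 appear in the submitters' processing notes, without roles. The sources used here give no read counter, strand setting or annotation release.

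From these values, limma 3.58.1 (R 4.3.3, trend, two-sided, group as the only term) was fitted on log2(value + 1) to the 8506 genes that reached a value of 1 in 3 or more libraries. Benjamini-Hochberg adjustment ran over all of them, at a threshold of 0.05. edgeR 4.0.16 and DESeq2 1.42.0 on the recovered reads, other pseudocounts, filters and scalings, removal of a length trend, the column letter as a block and leaving out each library were alternatives. The fit was tested on simulated data. Columns name libraries by letter and not by the labels' replicate numbers, so they were assigned to groups only. All 71 members were found in GENCODE release 29, 68 with the same coordinates, and lengths, UTRs and exon overlaps came from it.

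Members and gene lists were chosen with earlier results of these data known. Values in every library are given for HSF1, HSF2, BAG3, the 4 members of each role highest in Input, the 6 with the smallest p and those with a 7mer-m8 or 8mer site, 35 in all. Chosen after values were seen were the 5 ratios, the length limits of 2000 and 4000 nucleotides, the compartments, the plotted genes, HSPA1B, DNAJB9 and the genes named from the folding list and the pseudogenes. The pseudogene pattern also matched the coding genes HSPBP1 and HSPBAP1, which were then left out. The folding list holds only symbols with initials A to L; 1 listed gene was not analysed here. The site window of DNAJC3 is not reported here.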

Additional observations from a re-analysis of the deposited data

How the results depend on the processing

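With 6 libraries no member passed under any of the 10 alternatives other than leaving out a library, and over the whole table DESeq2 on the recovered reads called 2 genes, both higher, where limma called 0. Leaving out 1 library gave 0 to 29 members and 0 to 2442 genes over the table, and every call came from the fits without miR-CLIP B. There limma called 26 members and edgeR, added after seeing the data, 29 (10 higher, 19 lower, against 11.7% and 15.8% of all genes). The members' median log2 difference ran from -0.22 to 0.02 over these fits and was above 0 only without Input C. The median over all tested genes was -0.13 with limma and -0.02 with DESeq2, -0.03 with edgeR, -0.04 with the length trend removed, -0.05 with a minimum value of 10 and -0.22 with no filter. Of the 35 members given in every library, 18 passed with limma without miR-CLIP B and 0 without any other library. Of all tested genes 28.7% passed without miR-CLIP B, and the 35 include genes picked for a small p. All 350 of their values under the 10 alternatives stayed on the same side of the threshold, and 7 turned sign. With the length trend removed these were DNAJB1 at 0.045, DNAJC10 at -0.38, HSP90B1 at 0.071, HSPA9 at -0.046 and HSPB8 at 0.15, and HSPA9 was also at -0.020 with edgeR and at -0.0029 with DESeq2. Leaving out 1 library turned the sign of 13 members at least once. Their ranges were -0.41 to 0.061 for DNAJA2, -0.049 to 0.34 for DNAJA3, -0.17 to 0.45 for DNAJC10, -0.052 to 0.80 for DNAJC13, -0.27 to 0.20 for HSP90AA1, -0.18 to 0.28 for HSP90AB1, -0.22 to 0.21 for HSP90B1, -0.10 to 0.52 for HSPA1A, -0.19 to 0.20 for HSPA4, -0.32 to 0.017 for HSPA4L, -0.44 to 0.069 for HSPA5, -0.21 to 0.21 for HSPA9 and -0.30 to 0.29 for HSPB8. The cause of these changes was not tested. With the column letter as a replicate block, added after seeing the data, 0 members and 0 genes over the table passed (9 and 709 at an unadjusted p under 0.05, against 8 and 548 without it), and the members' median was again -0.08. The labels do not say that a letter marks a pair. Deviations from the group means of libraries with the same letter had Pearson correlations of 0.140, 0.107 and 0.0857 for A, B and C over 8506 genes, and each library correlated best with its own letter. Deviations within a group are tied by its mean, so these correlations are not independent and cannot settle whether a letter marks a pair. DNAJB7, HSPB2, HSPB3 and HSPB9 were too low to test.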
